A study of Mus musculus with 8 samples.

Results

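The regions described here are the H3K9ac regions of mouse ileal epithelium that the deposited table annotates as intergenic and places more than 5 kb from its nearest transcription start site (TSS). They were taken from a deposited table of 11251 merged regions (mm10), as the rows annotated as intergenic with a distance to the nearest TSS above 5000 bp in either direction. This rule gave 506 regions, 4.50% of the table. Acetylation of lysine 9 of histone H3 (H3K9ac) was measured by ChIP-seq, the sequencing of DNA bound to immunoprecipitated histones, on epithelium of the terminal ileum. The mice were wild-type C57Bl/6 animals that had received vehicle or butyrate at 150 mM for 7 days. Butyrate is a short-chain fatty acid of gut bacteria that inhibits histone deacetylases. There were 3 H3K9ac libraries in each group, numbered S1 to S3 (vehicle) and S4 to S6 (butyrate), and 2 input libraries that were not analysed here. Whether libraries of a group came from separate mice is not stated, so the p-values rest on a spread between libraries that may be partly technical.

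H3K9ac is laid down by histone acetyltransferases such as Gcn5 and PCAF and removed by histone deacetylases. It is strongest on the nucleosomes that flank active promoters, and it also marks active enhancers, which are bound by transcription factors away from promoters and can act on genes at a distance. In the small intestine, enhancers are known as binding places of GATA, CDX and HNF4 factors, which keep the enterocyte program active. An annotated position far from a TSS does not by itself make a region an enhancer, since unannotated or alternative promoters carry the same mark.

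The sequences that follow are each the central 300 bases of a region on the forward strand of the mouse reference (GRCm38.p6, RefSeq), with CG dinucleotides in capitals. The first 3 belong to the regions called as different between the groups in the authors' deposited table. The fourth, Bicral, is from the region with the highest density, and the last pair lies near Krt18, a keratin of simple epithelia, and Klf5, a transcription factor of proliferating crypt cells. Names are those of the nearest gene in the table.
Gata4, chr14:63270217-63270516: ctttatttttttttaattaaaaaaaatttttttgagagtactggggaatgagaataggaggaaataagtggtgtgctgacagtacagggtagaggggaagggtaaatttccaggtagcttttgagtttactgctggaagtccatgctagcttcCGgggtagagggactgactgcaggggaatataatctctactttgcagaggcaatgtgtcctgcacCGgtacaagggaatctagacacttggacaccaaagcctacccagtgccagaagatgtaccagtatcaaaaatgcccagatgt
Arl4d, chr11:101658345-101658644: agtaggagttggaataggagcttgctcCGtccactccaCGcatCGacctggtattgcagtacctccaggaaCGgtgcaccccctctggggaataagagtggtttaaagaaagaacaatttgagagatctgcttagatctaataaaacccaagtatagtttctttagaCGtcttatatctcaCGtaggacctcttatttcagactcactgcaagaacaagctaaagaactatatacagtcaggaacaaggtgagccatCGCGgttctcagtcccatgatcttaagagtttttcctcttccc
Bcat1, chr6:144945969-144946268: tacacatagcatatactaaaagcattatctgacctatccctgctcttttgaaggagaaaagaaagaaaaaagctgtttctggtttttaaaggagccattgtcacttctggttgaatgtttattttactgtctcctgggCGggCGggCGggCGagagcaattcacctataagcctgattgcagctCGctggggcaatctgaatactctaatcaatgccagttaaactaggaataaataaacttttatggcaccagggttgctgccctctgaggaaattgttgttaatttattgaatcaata
Bicral, chr17:46857208-46857507: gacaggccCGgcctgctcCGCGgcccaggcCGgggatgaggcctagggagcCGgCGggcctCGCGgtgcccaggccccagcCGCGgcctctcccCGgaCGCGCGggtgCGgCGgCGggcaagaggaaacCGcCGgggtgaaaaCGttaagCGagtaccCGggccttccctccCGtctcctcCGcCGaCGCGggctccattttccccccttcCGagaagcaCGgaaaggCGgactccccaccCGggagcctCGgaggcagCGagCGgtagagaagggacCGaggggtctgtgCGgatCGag
Krt18, chr15:102016426-102016725: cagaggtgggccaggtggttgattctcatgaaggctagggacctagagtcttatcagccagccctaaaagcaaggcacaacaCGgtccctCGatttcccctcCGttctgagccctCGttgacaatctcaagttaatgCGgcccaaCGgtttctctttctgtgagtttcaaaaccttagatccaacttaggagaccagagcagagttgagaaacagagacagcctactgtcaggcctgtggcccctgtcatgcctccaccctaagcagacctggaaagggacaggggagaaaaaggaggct
Klf5, chr14:99580084-99580383: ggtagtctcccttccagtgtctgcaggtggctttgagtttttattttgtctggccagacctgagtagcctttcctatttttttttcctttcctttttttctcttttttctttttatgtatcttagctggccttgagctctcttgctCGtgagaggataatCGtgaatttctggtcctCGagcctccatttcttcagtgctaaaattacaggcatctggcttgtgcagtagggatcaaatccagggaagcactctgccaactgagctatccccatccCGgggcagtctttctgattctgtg
The Bicral stretch held 37 CG dinucleotides, while the Gata4 stretch held 2, the Klf5 stretch 4, the Bcat1 stretch 5, the Krt18 stretch 6 and the Arl4d stretch 8. The central stretch of the densest of these regions thus had the sequence composition of a CpG island, and the other stretches printed here did not.

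The label was checked against 2 annotations of the same build, since the table's distances rest on the authors' own. Of the 506 regions, 147 (29.1%) held the start of a GENCODE M21 transcript. A further 97 held the start of a RefSeq transcript, curated or predicted, and 262 held no start in either annotation. Of these 262, 69 (26.3%) had a GENCODE start outside the region but within 1000 bp of it. The 147 GENCODE starts included 67 of protein-coding genes and 63 of long non-coding RNAs, of which 49 were long intergenic RNAs. Of the 67 protein-coding starts, 39 belonged to the nearest gene named in the table and 28 to another gene. The region nearest Mir719, for example, held a start of Atp8a2, a phospholipid flippase, and the region nearest Papss1 held a start of Sgms2, a sphingomyelin synthase. A GENCODE protein-coding gene body overlapped 112 of the 506 regions. A sizeable minority of the regions thus lay over annotated alternative or non-coding promoters. The table also held 527 intronic regions more than 5 kb from a TSS, called distal intronic here, of which 197 held a start in either annotation, and 8600 regions within 1 kb of a TSS, called TSS regions here.

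Distances from the TSS ran from 5005 to 746839 bp with a median of 22458 bp. Of the 506 regions, 414 lay beyond 10000 bp, 112 beyond 50 kb and 37 beyond 100 kb. Upstream of the nearest TSS lay 343 regions and downstream 163. The nearest genes numbered 454, of which 410 had a single region, 38 had 2 and 6 had at least 3. At the edge of the rule, the regions just inside were near Sirt4 (5005 bp, 4.13 RPKM), Ccne2 (5007 bp, 1.14 RPKM) and Slc6a6 (5033 bp, 2.30 RPKM), as means over the 6 libraries. Those just outside were near Hes1 (4943 bp, 4.45 RPKM), Tmem184a (4861 bp, 3.28 RPKM) and Nemf (4823 bp, 2.79 RPKM). RPKM are the reads per kilobase of region, scaled by the authors to the depth of the library, so that regions of different length can be compared.

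The distal intergenic regions were short and weak beside promoters. Their median length was 636.5 bp against 1417 bp in the whole table, and 206 of them (40.7%) had exactly the shortest length in the table, 500 bp, against 15.3% of all regions. Distal intronic regions were as short, with a median of 632 bp and 40.4% of them at 500 bp. The median density of the distal intergenic regions was 1.36 RPKM against 3.35 RPKM in TSS regions and 1.17 RPKM in distal intronic regions. Within a library, the median of the distal intergenic regions was 1.32, 1.53 and 1.54 RPKM in vehicle and 1.40, 1.47 and 1.42 RPKM in butyrate. The medians of TSS regions lay between 3.32 and 3.38 RPKM in the 6 libraries. No library of either group thus came near the TSS level, and the groups overlapped. On average over the libraries, the median distal intergenic region had 43.3% of the density of the median TSS region. The 506 regions held 1.77%, 1.83% and 1.81% of the reads in regions in vehicle and 1.78%, 1.82% and 1.78% in butyrate.

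Length, and density in every library, followed the start classes. A start counted wherever it lay in a region, so longer regions were more likely to hold one. No comparison at equal length was made. Regions with a GENCODE start had a median length of 1139 bp and a median of 2.58 RPKM, those with only a RefSeq start 894 bp and 1.49 RPKM, and those without a start 500 bp and 1.12 RPKM. The lowest library median of the regions with a GENCODE start was 2.45 RPKM, and the highest of the regions without a start was 1.26 RPKM. A median of 67.5 reads per library lay behind a region with a GENCODE start, and of 13.3 reads behind one without a start. At least 25 mean reads were reached by 112 of the 147 regions with a GENCODE start and by 48 of the 262 without one. The regions that could be measured well were therefore mostly those over annotated starts.

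**Figure D1:**
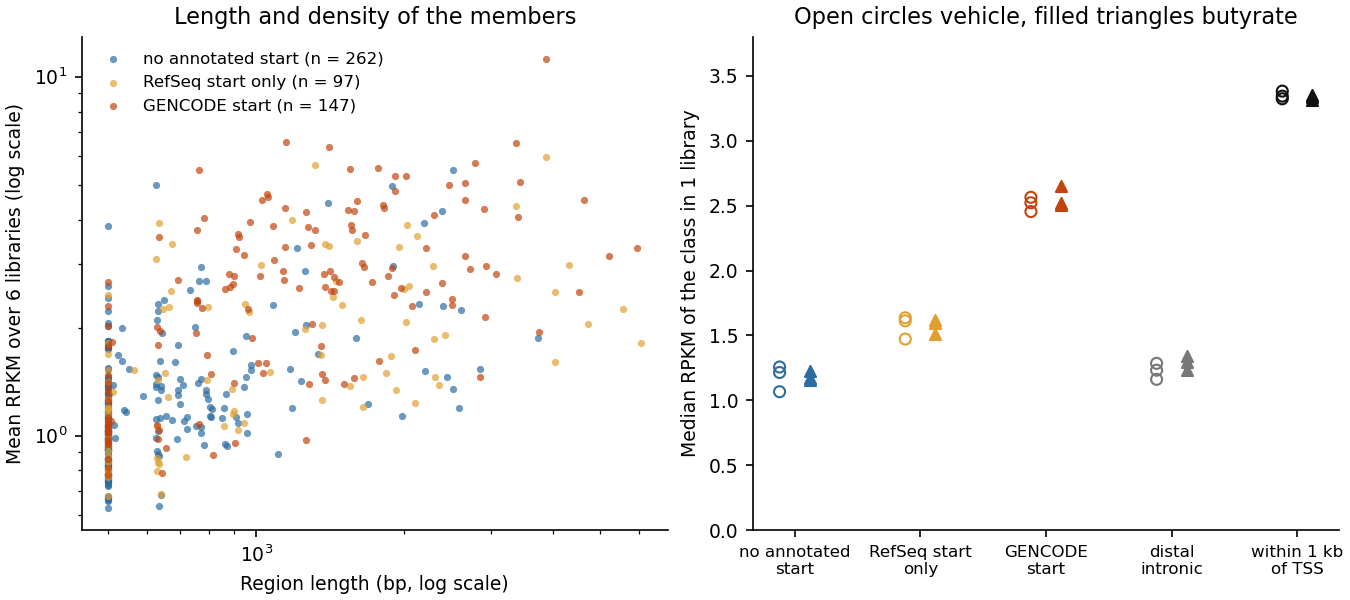
Left, length (bp, log scale) and mean RPKM over the 6 libraries (log scale) of the 506 distal intergenic regions, 1 point per region, by start class. Right, the median RPKM of each class in each of the 3 vehicle and 3 butyrate libraries; regions with a GENCODE start sit between 2.45 and 2.65, those without a start between 1.07 and 1.26, and TSS regions between 3.32 and 3.38.

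The highest densities were found over annotated starts. The densest region was near Bicral, which encodes a subunit of a SWI/SNF chromatin remodelling complex (chr17:46855415-46859300, -25945 bp). It measured 10.7, 9.62 and 10.7 RPKM in vehicle and 10.9, 12.3 and 12.9 RPKM in butyrate, and it held a start of Bicral itself. Further dense regions held a start of Arhgap5, a GTPase-activating protein (6.53 RPKM), of Fignl2, an AAA ATPase of the fidgetin family (6.37 RPKM), and of Phf3, a PHD finger protein (5.58 RPKM). The dense region near Zfp958, a zinc finger gene, held starts of the non-coding genes Gm6410 and Gm7461 (6.56 RPKM), and that near Papss1 the start of Sgms2 (5.73 RPKM). Near Arid1b, a subunit of the BAF chromatin remodelling complex, a region of 5.66 RPKM held only a predicted RefSeq start, Gm34507. Near the keratin gene Krt42, a region of 5.98 RPKM was 58.8% repeat-masked in its central 500 bp. Of the 8 densest regions, none lacked a start in both annotations.

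Among the 262 regions without a start, the highest values were lower, and the regions named here were chosen after their values were seen. A region near the non-coding gene 1810026B05Rik (chr7:73617220-73619730) had 5.50 RPKM and a CpG observed over expected ratio of 0.94. Next came regions near 1700016K19Rik (4.98 RPKM), Tmem211 (4.96 RPKM), Igip (4.45 RPKM), Arid1a, a BAF subunit (4.21 RPKM), and Casz1, a zinc finger transcription factor (3.91 RPKM). A region 223569 bp downstream of Tle3, a Groucho-type corepressor, had 3.32 RPKM. It measured 3.61, 2.73 and 3.35 RPKM in vehicle and 3.90, 3.64 and 2.71 RPKM in butyrate, and its groups overlapped.

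The longest regions reached the size of broad promoter domains. They were near Stk25, a kinase (6059 bp, 1.81 RPKM), near Zfp541 over a start of Bicra, the paralog of Bicral (5931 bp, 3.33 RPKM), near Tcim (5576 bp, 2.26 RPKM), over a start of Fat1, an atypical cadherin (5204 bp, 3.17 RPKM), and near Ssr2 over a RefSeq start of Arhgef2, a guanine nucleotide exchange factor (4725 bp, 2.05 RPKM). Each of these held a start in at least 1 annotation. Of the 5 farthest regions, the Tle3 region described above was the densest, with 3.32 RPKM. The most distant were weaker, with 1.44 RPKM at 746839 bp from 1700019E08Rik, 1.03 RPKM at 555953 bp from BC006965 and 0.779 RPKM at 387110 bp from 2410018L13Rik. The Klf5 region (chr14:99578807-99581659, 281542 bp downstream of its TSS) came next by distance, with 1.54 RPKM. It measured 1.24, 1.59 and 1.81 RPKM in vehicle and 1.47, 1.61 and 1.50 RPKM in butyrate, with no start in either annotation.

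For 218 of the regions, the nearest gene also had a TSS region in the table. The distal region was the less dense of the pair in 183 cases and the denser in 35, and the median ratio of distal to TSS density was 0.381. Among the exceptions, named after their values were seen, the region near Ncoa6, a nuclear receptor coactivator, had 5.04 RPKM against 0.760 RPKM at the TSS region, and the region near Utrn, which encodes utrophin, had 4.40 RPKM against 0.666 RPKM. Both held a start of that same gene, and their central 500 bp had CpG ratios of 0.97 and 0.76. At these genes the mark was thus denser over an alternative start than at the TSS region with the most reads. Both of these TSS regions were weak, below the 1 RPKM needed for the limma fit.

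The sequence composition followed the start classes. CpG observed over expected, the count of CG dinucleotides relative to that given by the base composition, is high in CpG islands, where most broadly active promoters lie. In the central 500 bp its median was 0.47 in regions with a GENCODE start, 0.28 with only a RefSeq start and 0.20 without a start, beside 0.68 in TSS regions and 0.18 in distal intronic regions. A ratio above 0.6 was found in 36.1% of the regions with a GENCODE start, in 6.11% of those without one in either annotation and in 60.0% of TSS regions. Median GC content was 53.0% with a GENCODE start, 46.8% without a start and 58.4% in TSS regions. More than 50% of the central bases were repeat-masked in 36 distal intergenic regions (7.11%), against 2.08% of all regions, and none of these 36 had a GENCODE start. By composition, the regions without a start resembled distal intronic regions more than promoters. These are descriptions without a test, since neighbouring regions and shared promoters are not independent.

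**Figure D2:**
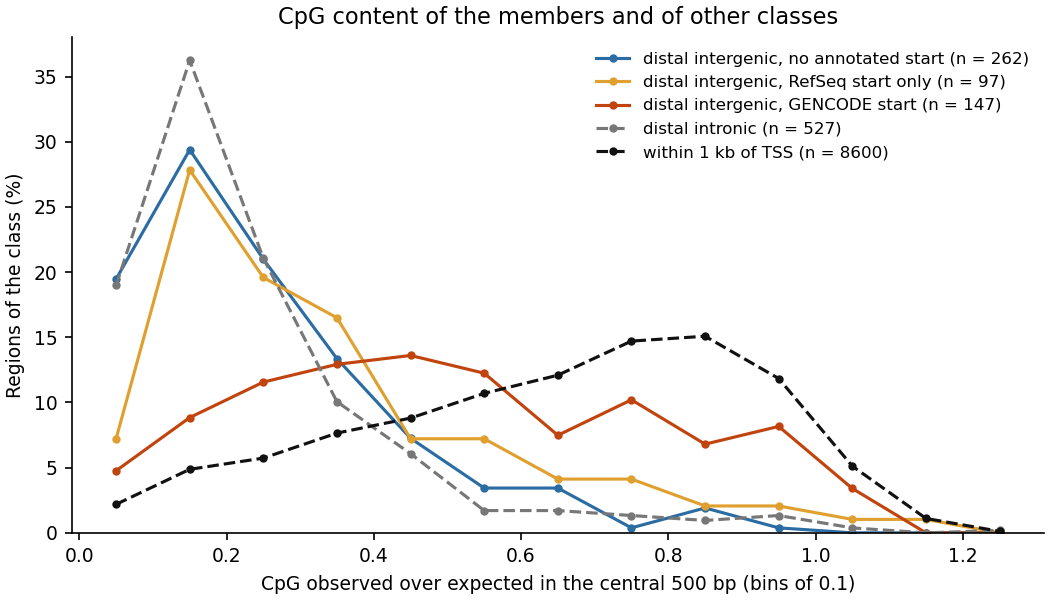
CpG observed over expected in the central 500 bp (bins of 0.1) against the percent of regions of each class. The regions without an annotated start (median 0.20) follow the distal intronic regions (0.18), and those with a GENCODE start (0.47) spread toward the TSS regions (0.68).

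Short motifs of intestinal and general factors were searched in the same 500 bp on both strands. The letters were AGATAA for GATA factors, TTTATNG for CDX, CAAAGTC for HNF4, TGANTCA for AP-1, TGTTTAC for FOX, AGGNGGC for CTCF, CCGGAAG for ETS and CCGCCC for the GC box bound by Sp factors. The GATA letters were found in 26.7% of distal intergenic regions, in 13.2% of TSS regions and in 16.0% of all regions. The CDX letters were found in 18.8%, 11.9% and 14.2%, and the AP-1 letters in 13.8%, 7.64% and 9.13% of the same classes. The distal intergenic regions with a GENCODE start were close to TSS regions in the CDX letters (12.2%) and the AP-1 letters (6.80%). Their share with the GATA letters, 20.4%, lay between those of TSS regions and of all distal intergenic regions. Regions with only a RefSeq start held the GATA letters in 34.0%, the CDX letters in 25.8% and the AP-1 letters in 19.6%. The GC box, in contrast, was found in 23.7% of distal intergenic, 55.3% of TSS and 46.1% of all regions, and the ETS letters in 6.92%, 13.6% and 11.5%. For HNF4 the shares were 8.70%, 6.77% and 7.52%, for FOX 7.31%, 4.79% and 5.49% and for CTCF 34.8%, 46.7% and 43.0%. The CTCF and GC box letters can overlap in G-rich stretches. Regions without a start and distal intronic regions without a start held the GATA letters in 27.5% and 27.6%, the CDX letters in 19.8% and 23.9%, and the GC box in 15.3% and 5.45%. The AT-rich letters follow base composition as well, and GC content differed between these classes, so a match is a description of sequence and not a binding site.

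**Figure D3:**
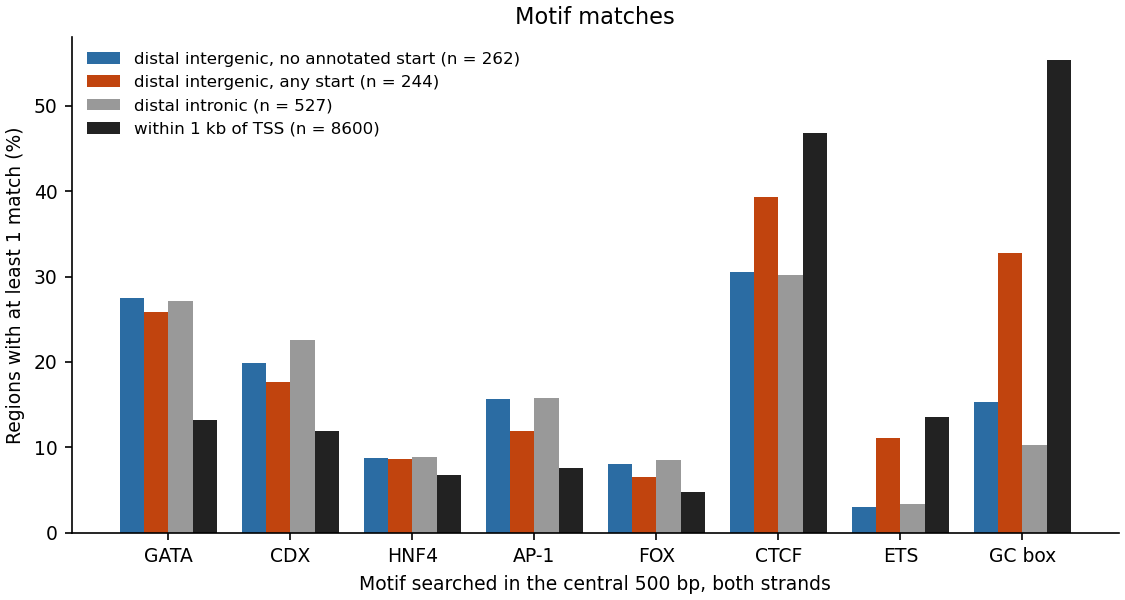
Percent of regions in each class with at least 1 match to a motif in the central 500 bp, either strand. The class with any start joins regions with a GENCODE start and those with only a RefSeq start. The GATA, CDX and AP-1 letters are more frequent in the 3 distal classes drawn than in TSS regions (GATA 27.5% without a start, 13.2% in TSS regions), and the GC box is more frequent in TSS regions (55.3%).

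The study compared butyrate with vehicle. At the distal intergenic regions, most differences were small and lay in both directions. The comparison was tested with limma on log2(RPKM + 1), fitted on the 10529 regions of the table with a mean of at least 1 RPKM, of which 385 were distal intergenic. The other 121 distal intergenic regions were below that density. After Benjamini-Hochberg adjustment limma called 0 of the 385 at 0.05, where the share over all tested regions was 0% as well, and the smallest adjusted p among them was 0.49. Of the 385, 35 (9.09%) had an unadjusted p under 0.05, 16 higher and 19 lower with butyrate, against 7.27% of all tested regions. By start class the share was 12.7% with a GENCODE start, 5.19% with only a RefSeq start and 8.05% without a start. The log2 fold changes of the 385 had a median of 0.00 and an SD of 0.22, and 191 were above 0 and 194 below. The median half-width of their 95% interval was 0.37, against 0.26 over all tested regions. Values are relative to the authors' scaling of each library, so a change shared by all regions could not be seen.

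Fits on recovered whole reads called a few of the regions. Voom, which weights each value by its expected counting error, called 2 of the 213 regions with at least 25 mean reads, near Gata4 and Arl4d, against 0.0995% of all regions tested so. An unadjusted p under 0.05 was reached at 22 of these 213 (10.3%), 7 higher and 15 lower, against 8.30% of all regions tested so. On all regions without a minimum, voom called 4 of 506, adding regions near Bcat1 and 1810026B05Rik, against 0.142% of the table. The authors' deposited table had 3 of 506 at an FDR under 0.1, near Gata4, Arl4d and Bcat1, against 0.249% of its regions. Every butyrate library exceeded every vehicle library at 36 regions (7.11%, against 6.83% of the table), and the reverse held at 45 (8.89%, against 7.35%). These last shares were thus close to those of the table.

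H3K9ac was lower with butyrate at the region near Gata4, a GATA-binding transcription factor of the small intestine (chr14:63268829-63271904, 3075 bp). It measured 3.30, 3.88 and 3.35 RPKM in vehicle and 2.01, 1.71 and 2.64 RPKM in butyrate, and the groups did not overlap. In bulk tissue, fewer cells with the mark and less acetylation per cell cannot be told apart. The means were 3.51 ± 0.32 and 2.12 ± 0.48 RPKM (SD, n = 3 each), with 184 mean reads per library. By voom on regions of at least 25 reads the log2 fold change was -0.71 ± 0.13 (SE), with an adjusted p of 0.00029. It stayed under 0.05 without each library in turn (adjusted p 0.000194 to 0.0446). Limma on log2(RPKM + 1) gave -0.54 ± 0.13, with an adjusted p of 0.49, and the authors' deposited table gave -0.71 with an FDR of 0.00528. The table placed the region 25096 bp upstream of Gata4, while both GENCODE and RefSeq held a start of a Gata4 transcript inside it. It was therefore an alternative Gata4 start by annotation. Its central 500 bp had a CpG ratio of 0.25 and none of the GATA, CDX, HNF4 or AP-1 letters.

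H3K9ac was higher with butyrate at the region near Arl4d, an ARF-like GTPase (chr11:101657713-101659275, -7047 bp). It measured 2.78, 2.91 and 2.85 RPKM in vehicle and 4.96, 3.90 and 5.03 RPKM in butyrate, without overlap of the groups. The means were 2.84 ± 0.064 and 4.63 ± 0.64 RPKM (SD, n = 3 each). Voom on regions of at least 25 reads gave a log2 fold change of 0.71 ± 0.16 (SE) with an adjusted p of 0.014. With 1 library left out, the adjusted p stayed under 0.05 without S2 (0.0498) or S5 (0.00788). It was 0.116 without S1, 0.105 without S3, 0.0965 without S4 and 0.166 without S6. Limma on log2(RPKM + 1) gave 0.54 ± 0.11, with an adjusted p of 0.49. The region held the start of Rnu2-10, a gene of the U2 small nuclear RNA of the spliceosome. U2 genes occur in near-identical copies, and how reads that match several copies were counted is not given in the sources used here, so this value is uncertain.

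The other called regions were close to the limit of detection. Near Bcat1, the cytosolic branched-chain aminotransferase (chr6:144945801-144946436, 102693 bp), vehicle libraries had 15, 11 and 17 recovered reads and butyrate libraries 2, 4 and 2. These correspond to 1.06 ± 0.21 and 0.211 ± 0.12 RPKM (SD, n = 3 each), below the density tested by limma. Voom on all regions gave an adjusted p of 0.049, the authors' deposited table an FDR of 0.0237, and limma without the filter an adjusted p of 0.51. The region held no annotated start. Near 1810026B05Rik (chr7:73602447-73603087) vehicle libraries had 15, 13 and 14 reads and butyrate libraries 0, 11 and 1. One butyrate library thus lay within the vehicle range of RPKM, and although voom on all regions gave an adjusted p of 0.0017, the authors' deposited table gave an FDR of 0.404.

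**Figure D4:**
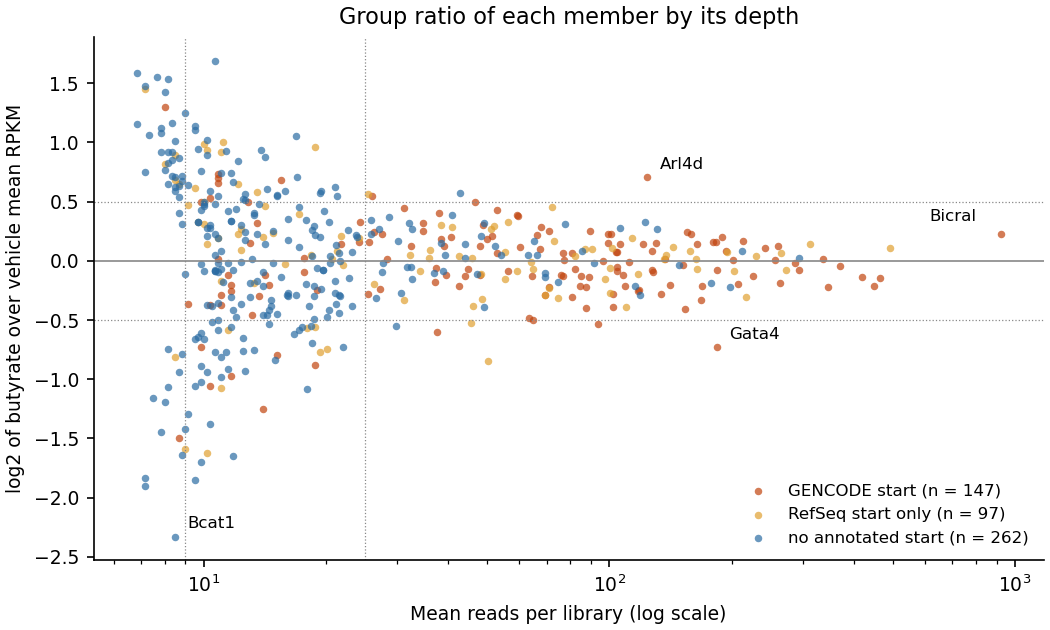
Mean reads per library (log scale) against the log2 ratio of the butyrate to the vehicle mean RPKM for the 506 distal intergenic regions, by start class; dotted lines mark 9 and 25 reads and log2 ratios of 0.5 and -0.5. Below 9 reads only 2 of 49 regions lie between the dotted ratios, and at 100 reads or more 80 of 82 do.

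The ratio between the groups depended on depth. Of the 82 regions with at least 100 mean reads, 80 (97.6%) had a log2 ratio of mean RPKM within 0.5 of 0, and the exceptions were Gata4 and Arl4d. Of the 131 regions with 25 to 100 reads, 123 (93.9%) did so, and of the 244 with 9 to 25 reads, 150 (61.5%). Of the 49 regions with under 9 reads, only 2 (4.08%) did so. In these weakest regions 34 were higher by more than 0.5 and 13 lower. The same was seen over the table, where 15 of the 207 regions with under 9 reads (7.25%) were within 0.5 of 0. The weakest regions were thus nearly all unequal between the groups. How regions were called, and on which libraries, is not given in the sources used here, and its part in these ratios was not tested.

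Regions with at least 25 reads and the smallest limma p, none of which passed adjustment, are given as values. On the lower side the smallest p was at the region near Mir719 over an Atp8a2 start (chr14:60177109-60178403), followed by Gata4. It measured 4.10, 4.03 and 3.96 RPKM in vehicle and 2.93, 2.76 and 2.64 RPKM in butyrate, without overlap of the groups. Its log2 fold change by limma was -0.41 ± 0.10 (SE), with an adjusted p of 0.49. By voom on regions of at least 25 reads the adjusted p was 0.29. A second region 573 bp away had 1.25 ± 0.45 and 1.43 ± 0.79 RPKM (SD, n = 3 each) and overlapping groups. Other lower regions were near Gm10416 (-0.37 ± 0.12), C77080 (-0.38 ± 0.14), Smim13 (-0.37 ± 0.14), Stard13, a lipid transfer domain protein, over its own start (-0.31 ± 0.13), and Rnf19a, a ubiquitin ligase (-0.25 ± 0.11), all as limma log2 fold changes with their SE.

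On the higher side after Arl4d stood the region near Uri1, a prefoldin-like protein, with 2.13 ± 0.21 RPKM in vehicle and 3.00 ± 0.34 RPKM in butyrate (SD, n = 3 each). It held a start of the non-coding gene Gm30684, and its limma log2 fold change was 0.35 ± 0.12 (SE). The densest region, at Bicral, had 10.3 ± 0.60 and 12.1 ± 1.0 RPKM (SD, n = 3 each), and all butyrate libraries lay above all vehicle libraries. Its limma log2 fold change was 0.21 ± 0.07 (SE), with an adjusted p of 0.57. The region over a start of Crip1, a LIM-domain protein abundant in the intestine, had 3.24 ± 0.21 and 4.22 ± 0.63 RPKM (SD, n = 3 each). Further ones were near 5430421F17Rik over a start of Tacc1 (0.36 ± 0.14), near Zfp958 (0.20 ± 0.08) and near C230035I16Rik over the non-coding gene Gm46404 (0.32 ± 0.14), as limma log2 fold changes with their SE.

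**Figure D5:**
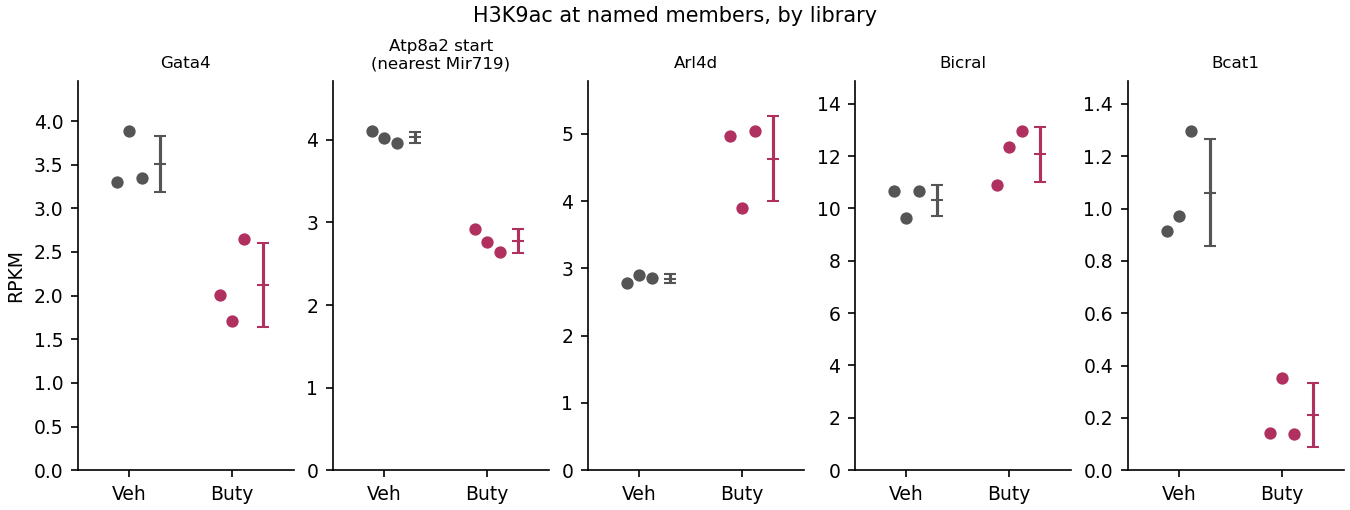
RPKM of 5 named regions in each vehicle (Veh) and butyrate (Buty) library, as points, with the mean and SD (n = 3) beside them and a separate axis from 0 for each. The groups do not overlap at Gata4 (3.30 to 3.88 against 1.71 to 2.64), the Atp8a2 start, Arl4d, Bicral or Bcat1.

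The nearest genes were compared with lists of known gene groups. Of 9435 genes with a region within 5 kb of their TSS, 260 (2.76%) were also the nearest gene of a distal intergenic region. Over 13 lists with 346 distinct genes, 19 genes had such a region. This count cannot be set against 2.76% as a like share, since not all genes on the lists had a region within 5 kb. The lists were also chosen with earlier results of these data known. No distal intergenic region was nearest to the 43 genes of enterocyte digestion and absorption, of which 38 had a region within 5 kb. None was near the 39 Wnt, Notch, BMP and crypt genes (28 with a region within 5 kb), the 25 genes of butyrate transport, receptors and histone deacetylases (16) or the 25 genes of fatty acid oxidation and ketogenesis (21). Nearest genes need not be the genes that a region acts on, and the lists differ in length and gene spacing, so these counts are descriptions. In lists of this size, a count of 0 is near the share of 2.76%.

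The immediate early genes, which answer growth and stress signals within minutes and include the AP-1 subunits, had the most such regions, with 8 of 30 genes. They were Btg2, Dusp6, Fos, Fosb, Gadd45a, Ier2, Jun and Zfp36l2. The regions nearest Jun, Dusp6 and Zfp36l2 held GENCODE starts of the non-coding genes Gm12708, Gm34777 and AC132455.2. The Fos region held only a RefSeq start, Gm38543, and the regions near Btg2, Fosb, Gadd45a and Ier2 held no start. The Jun region lay 141389 bp from that gene, and the Ier2 region was 70.4% repeat-masked in its central 500 bp. Of the 8 regions, 6 were dense enough to be tested, with 2 above and 4 below 0. The untested pair, Gadd45a and Jun, had log2 ratios of butyrate to vehicle mean RPKM of 0.59 and 0.53 at under 1 RPKM. Limma called 0 of them, and 0 had an unadjusted p under 0.05. The region near Fos (chr12:85450798-85453214, 21884 bp upstream) measured 1.78, 1.76 and 2.46 RPKM in vehicle and 1.96, 1.59 and 1.86 RPKM in butyrate. The region near Fosb (chr7:19301019-19301926) measured 0.854, 1.05 and 0.853 RPKM in vehicle and 1.29, 1.60 and 1.13 RPKM in butyrate. The Fos groups overlapped and the Fosb groups did not, yet limma gave Fosb a log2 fold change of 0.28 ± 0.18 (SE) with an adjusted p of 0.74. The region near Zfp36l2, an mRNA decay factor, had 3.24 ± 0.58 and 2.67 ± 0.47 RPKM, and that near Btg2, an antiproliferative factor, 1.59 ± 0.27 and 1.44 ± 0.22 RPKM (SD, n = 3 each).

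Of the 30 intestinal transcription factors, 3 had a distal intergenic region, Gata4, Klf5 and Prdm1. The region near Prdm1, a repressor that holds back the adult enterocyte program before weaning, had 1.19 ± 0.37 and 1.22 ± 0.44 RPKM (SD, n = 3 each). Among 29 genes of epithelial junctions and cytoskeleton, 4 had one, and 3 of these are keratins of simple epithelia. The region near Krt18 (chr15:102014888-102018262, 11641 bp upstream) measured 4.43, 4.15 and 3.87 RPKM in vehicle and 4.62, 4.75 and 4.37 RPKM in butyrate, with overlap of the groups. It held only a RefSeq start, Gm41404, as the Prdm1 region did with Gm35028. The Ezr region held a GENCODE start of the non-coding gene 4933426B08Rik, and those near Krt19 and Krt8 held no start. The region near Ezr, which links the brush border membrane to actin, had 2.11 ± 0.27 and 2.47 ± 0.14 RPKM, that near Krt19 1.21 ± 0.31 and 1.40 ± 0.30 RPKM, and that near Krt8 1.44 ± 0.40 and 1.17 ± 0.35 RPKM (SD, n = 3 each). Limma called 0 of these 4, 0 had an unadjusted p under 0.05, and it gave the Krt18 region a log2 fold change of 0.12 ± 0.09 (SE) with an adjusted p of 0.79.

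The cell type label was set beside the regions within 5 kb of marker genes. The lists were chosen with earlier results of these data known, so this is not an independent check. All 16 epithelial markers had such a region, against 5 of 28 immune markers (Cd3d, Ikzf1, Laptm5, Ptprc and Tcf7) and 2 of 26 stromal, endothelial, muscle and neuronal markers (Actg2 and Vim). Among 26 genes of secretory lineages, only 3 had such a region (Agr2, Kcnk6 and Muc13). The summed RPKM of the epithelial markers was 87.8 to 95.7 in vehicle and 83.3 to 91.2 in butyrate, that of the immune markers 7.18 to 9.87 and 5.91 to 9.09, and that of the stromal group 2.52 to 4.44 and 2.05 to 3.09. The ranges of the groups overlapped for each list. Of the immune and stromal marker lists, 1 gene was nearest to a distal intergenic region, Cdh5, the cadherin of endothelium, with 1.75 ± 0.34 and 1.62 ± 0.17 RPKM (SD, n = 3 each), although it lay 64806 bp from that gene. Outside these lists, and noted after the values were seen, regions lay nearest to the T-cell genes Cd28 (1.09 ± 0.41 and 0.842 ± 0.26 RPKM) and Ctla4 (1.27 ± 0.24 and 0.745 ± 0.31 RPKM), at 32795 and 48609 bp. Single regions were nearest to Muc13, a transmembrane mucin (1.13 ± 0.16 and 1.26 ± 0.25 RPKM), to Arntl, a subunit of the core clock activator (1.22 ± 0.29 and 1.29 ± 0.37 RPKM), and to Irf8, an interferon regulatory factor (1.03 ± 0.28 and 0.974 ± 0.56 RPKM), and limma called none of them. By annotation, the Arntl region held a RefSeq start of Arntl and the Cdh5 region one of Gm32728, while those near Muc13 and Irf8 held no start.

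Several regions stood close together. The non-coding genes 1810026B05Rik and A630001O12Rik were nearest to 4 regions each, and Nedd4l, Gm10416, 8430423G03Rik and Rassf3 to 3 each. Near A630001O12Rik, 3 regions followed each other on chromosome 8 with gaps of 488 and 230 bp, none with an annotated start. Their means over the 6 libraries were 2.97, 1.08 and 1.53 RPKM. Near Rassf3, a Ras-association domain protein, regions of 2.10 and 2.88 RPKM lay 196 bp apart, and the denser one held a start of the non-coding gene Gm35696. The next region of the table, of any class, lay within 1000 bp for 31 of the 506 distal intergenic regions and within 10000 bp for 127 (25.1%), against 29.0% of all regions, so that most of them stood alone.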

How the data were processed

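H3K9ac was measured in 3 vehicle and 3 butyrate libraries. The submitters' processing notes name mm10, STAR, Picard, HOMER and edgeR, with no version or role. How regions were called and reads counted is not given in the sources used here. Per the file headers, the deposited table gives RPKM for each library and group means of RPKM and CPM. It also gives log2 fold changes, log2 CPM, p-values and FDR from the authors' own test. Column names gave the group of a library and no sample number.

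RPKM times length, divided by the step common to all values of a library (which gives its effective size, 17846924 to 25805595 reads), was whole for 100% of values (tolerance 0.01 reads). This gave 1255251 to 1828591 reads in regions per library. Limma 3.58.1 in R 4.3.3 was fitted to log2(RPKM + 1) over all regions with a mean of at least 1 RPKM, with an intensity trend, robust empirical Bayes and Benjamini-Hochberg adjustment at 0.05. On this scale fold changes of weak regions are understated. Fits of the recovered reads were voom on all regions or on those with at least 25 mean reads. Limma on log2(RPKM + 1) and voom on regions of at least 25 mean reads were tested on simulated data. The spread between simulated libraries was set beforehand and not estimated from these libraries. How many true changes the fits would miss here is therefore not known. Voom on all regions was not tested on simulated data. Start sites came from GENCODE M21 and RefSeq on GRCm38, and all 11251 regions lay within its chromosomes. Coordinates are as deposited, and printed sequences are counted from 1.

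The members and gene lists were chosen with earlier results of these data known. Named were called regions, the 8 with the smallest limma p in each direction with at least 25 reads, the 8 densest, the 5 longest and 5 farthest, list genes (values for up to 4 per list), genes with 3 or more regions, and the 3 on each side of 5000 bp. A pair of regions that this rule names, 1 in each direction, is not reported here. Alternatives covered model, filter, pseudocount, scaling, threshold, distance, start sites, motif window and leaving out each library.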

Additional observations from a re-analysis of the deposited data

How the results depend on the processing

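The count of distal intergenic regions called was 0 by limma on log2(RPKM + 1), also without each library in turn (0 to 0). It was 4 with voom on all regions and with each other scaling of it (RLE-type, reads in regions, upper quartile), 2 with voom on regions of at least 25 mean reads and 2 with limma on log2(CPM + 0.5). With voom on at least 25 reads it was 1 to 2 without each library in turn. The cause of these differences was not tested. The share of reads in regions was 1.80% in the mean of the libraries, 1.55% for regions beyond 10000 bp, 0.825% for those without a GENCODE start and 0.414% for those without any start, since fewer regions enter. The density relative to TSS regions was 43.3%, and 37.4% and 35.4% for the last 2 groups of regions. The 147 regions with a GENCODE start became 67 with protein-coding starts only, 226 with starts within 1000 bp and 244 with RefSeq starts added. In a window of 300 bp all 8 motif shares were lower than in 500 bp (GATA 17.6%, GC box 16.0%). The smaller window lies inside the larger, so a share could not rise, and this does not bear on the differences between classes. The median log2 fold change of the members stayed near 0 and changed sign. It was -0.0046 by limma, 0.0338 by voom on all regions, 0.0150 by voom on at least 25 reads and 0.0182 without the filter, and -0.0248 to 0.0135 without each library in turn by limma. None of the called regions and of the regions with the smallest p changed direction under these settings. No paired analysis was possible because the columns of the table carry no replicate number of the labels. Depth limits the comparison at the 293 regions with under 25 mean reads.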

Other observations

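Chromosome X held 1 of the 506 distal intergenic regions (0.198%), near Amot, an angiomotin of cell junctions, against 210 of all 11251 regions (1.87%) and 177 of the 8600 TSS regions (2.06%). Distal intronic regions held 4 of 527 there (0.759%). This difference was noticed in the data and was not tested.

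Reads were absent from 3 of the 506 regions in library S4 and from none in the other libraries. Without an annotated start, the median gap to the next region of the table was 19906.5 bp, against 35702 bp for distal intergenic regions with a GENCODE start.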
